A study of Homo sapiens with 6 samples.

Results

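The genes described here encode the centromere, the kinetochore and the spindle assembly checkpoint, measured in A549 cells with and without the MIR21 gene. They were taken by name from a table of 58174 listed genes: protein-coding genes whose symbol is CENP followed by a single letter, and a fixed set of checkpoint, kinetochore, chromosomal passenger and mitotic kinase genes. This gave 46 genes out of 19799 protein-coding ones. SGO1 was listed under that symbol and not under its older name SGOL1. A549 is an established line of human lung adenocarcinoma cells. The Ctrl group (3 libraries) was made from parental A549 cells, and the MIR21-KO group (3 libraries) from A549 cells in which the MIR21 locus had been deleted by Cas9 and a pair of guide RNAs. Both groups were grown in DMEM with serum and harvested 48 h after seeding, and polyA RNA was sequenced. The MIR21-KO cells descended from single sorted cells, whereas Ctrl cells were an uncloned population. The number of clones is not stated, and a property of a clone cannot be told apart from an effect of the deletion.

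A centromere is marked by nucleosomes that hold the histone H3 variant CENP-A. On these sits the constitutive centromere network, which carries the KMN network (the KNL1, MIS12 and NDC80 complexes), the part of the kinetochore that grips microtubules. Kinetochores without microtubules call on the checkpoint proteins, which hold back CDC20 and with it the anaphase promoting complex until every chromosome is attached. The chromosomal passenger complex, with AURKB as its kinase, corrects wrong attachments. Many of these genes are transcribed late in the cell cycle, so in bulk RNA fewer cells in G2 and mitosis and less RNA per cell cannot be told apart.

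Many of the genes have short promoter words in common that are known from late cell cycle genes. One is the CHR (cell cycle genes homology region, letters TTTGAA), which is read by DREAM and MYBL2 complexes, and another is the CCAAT box, which is bound by NF-Y. The promoters below run from 100 bases before the annotated start to 20 bases from it onwards (RefSeq, GRCh38.p14, each written 5′ to 3′ on the strand of its gene). They are those of 5 genes that fell in MIR21-KO cells and of NDC80 and SPC25, 2 genes of the NDC80 complex that were not called. Every promoter printed carries a CHR, so they do not stand for the whole group. The CHR was found in 9 of the 17 called genes with a promoter and in 7 of the 20 not called. Of the same complex NUF2, with a CHR, and SPC24, without one, are not printed. Capitals mark the CHR and the CCAAT box on either strand, where TTCAAA and ATTGG are the reverse forms.
PLK1 (chr16:23678789-23678908, plus strand): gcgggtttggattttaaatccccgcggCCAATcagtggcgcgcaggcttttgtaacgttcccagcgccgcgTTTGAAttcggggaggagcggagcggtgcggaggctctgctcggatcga
INCENP (chr11:62123911-62124030, plus strand): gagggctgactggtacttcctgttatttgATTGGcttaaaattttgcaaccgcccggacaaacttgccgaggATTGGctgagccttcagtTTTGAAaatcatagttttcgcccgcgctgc
BUB1B (chr15:40160969-40161088, plus strand): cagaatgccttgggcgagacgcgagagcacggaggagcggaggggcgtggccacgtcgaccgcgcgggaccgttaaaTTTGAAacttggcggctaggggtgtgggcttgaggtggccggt
CDCA8 (chr1:37692416-37692535, plus strand): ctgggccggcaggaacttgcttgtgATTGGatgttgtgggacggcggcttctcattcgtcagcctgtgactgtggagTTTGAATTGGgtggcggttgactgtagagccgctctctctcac
CDC20 (chr1:43358881-43359000, plus strand): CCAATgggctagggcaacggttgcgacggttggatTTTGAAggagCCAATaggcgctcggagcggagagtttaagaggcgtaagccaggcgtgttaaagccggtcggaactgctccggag
NDC80 (chr18:2571457-2571576, plus strand): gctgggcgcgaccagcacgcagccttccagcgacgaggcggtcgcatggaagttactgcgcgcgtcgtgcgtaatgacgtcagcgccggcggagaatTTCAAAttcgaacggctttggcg
SPC25 (chr2:168890411-168890530, minus strand): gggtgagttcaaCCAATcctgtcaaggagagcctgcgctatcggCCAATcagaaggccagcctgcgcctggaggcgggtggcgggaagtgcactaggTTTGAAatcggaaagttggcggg
In CDCA8 the CHR and a reverse CCAAT box overlap, and in NDC80 and SPC25 a CHR begins 3 bases before the start.

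The values are FPKM, in which fragments are scaled by gene length as well as by library size, so that levels can be compared between genes. All 46 genes passed the filter of a mean of at least 0.5 FPKM, which left 16006 genes for testing. A change is given as the log2 fold change of MIR21-KO over Ctrl on the log2(FPKM + 0.1) scale with its standard error (SE). Adjusted p-values (FDRs) came from limma over all 16006 genes, and a gene was called at an FDR under 0.01.

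In MIR21-KO cells 22 of the 46 genes fell, 0 rose and 24 were not called. Among all genes tested 8.38% were called lower and 7.66% higher, and among protein-coding genes 10.6% were called lower. The log2 fold change was below 0 for 39 genes, and its median was -0.51, beside a median of -0.02 over all genes tested and of -0.04 over protein-coding ones. At an unadjusted p under 0.05, 0 of the 7 genes with a positive change passed, and with voom on recovered reads 0 passed either. With GC and length trends removed 2 of 5 passed, MIS12 (log2 fold change 0.29, FDR 0.0177) and CENPC (0.34, FDR 0.0878), neither of them called at an FDR under 0.01. For 35 genes every MIR21-KO library lay below every Ctrl library, a pattern shown by 25.2% of all genes tested, and for 1 gene every MIR21-KO library lay above, which 22.8% of all genes showed. At an FDR under 0.05, 31 genes were called lower, against 16.8% of all genes tested. Summed over the 46 genes, the level was 1019, 1056 and 1041 FPKM in the Ctrl libraries and 773, 734 and 663 FPKM in the MIR21-KO libraries.

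**Figure D1:**
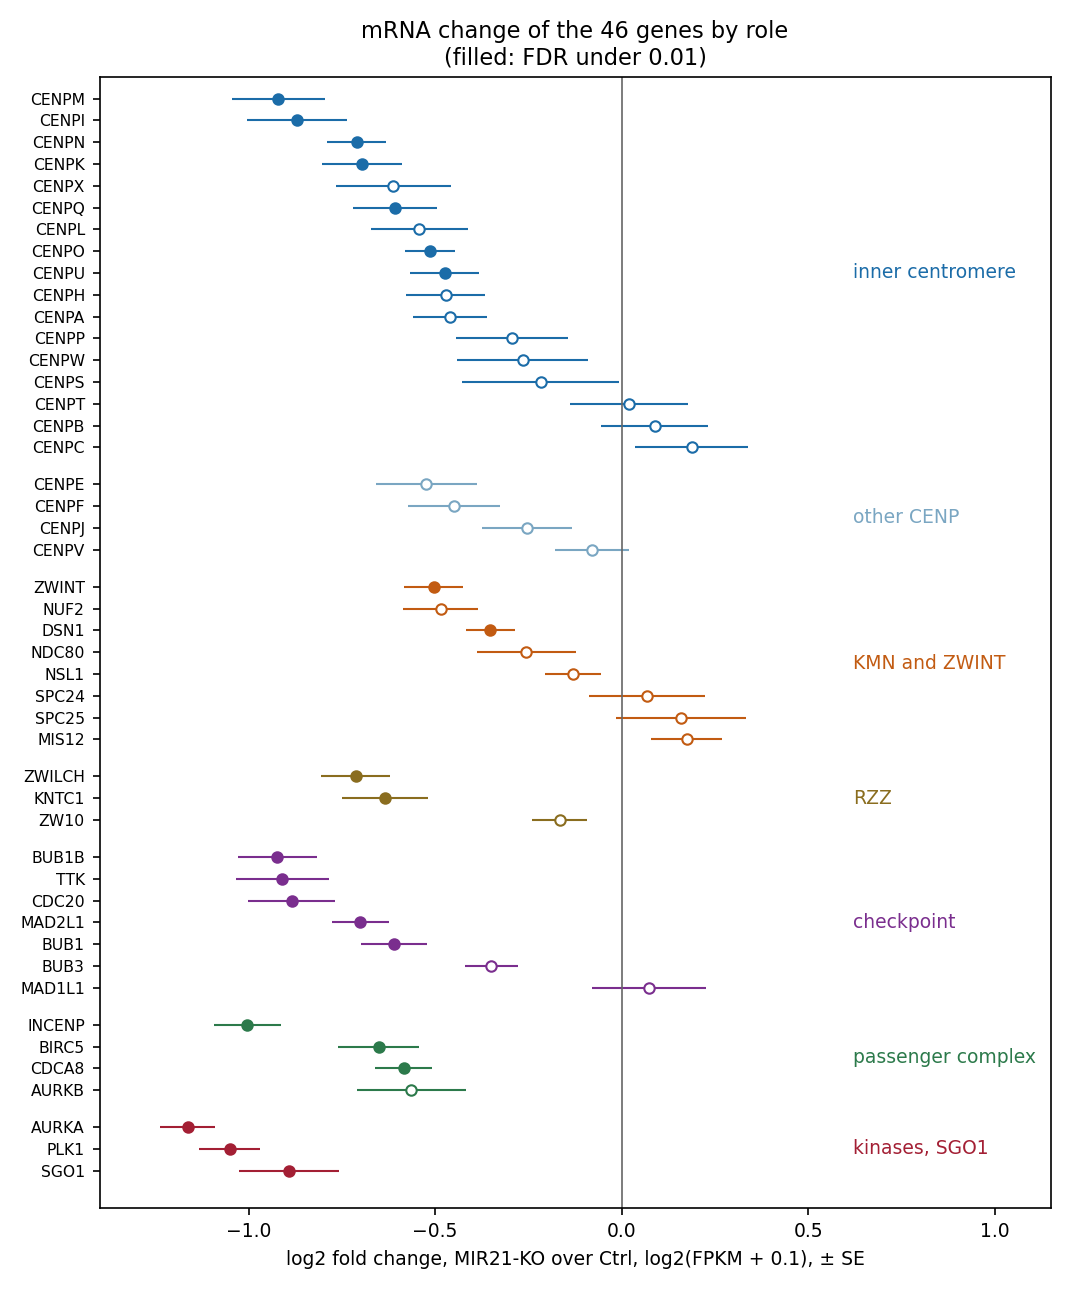
Log2 fold change of MIR21-KO over Ctrl for each of the 46 genes, grouped by role, with horizontal bars for ± SE and filled points for an FDR under 0.01. AURKA at -1.16 and PLK1 at -1.05 lie furthest to the left, and the KMN network reaches from -0.50 to 0.17.

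How many genes were called depended on single libraries. Without any 1 of the Ctrl libraries 6 genes stayed called lower, which were the same in each case (AURKA, BUB1B, CENPN, INCENP, MAD2L1 and PLK1). Without MIR21-KO replicate 2 there were 5 calls (AURKA, CDCA8, INCENP, MAD2L1 and PLK1), without MIR21-KO replicate 1 there were 19, and without MIR21-KO replicate 3 there were 23. AURKA, INCENP, MAD2L1 and PLK1 were thus called in all 6 of these fits, BUB1B and CENPN in 5 of them, and CENPU in 0. The number of genes with a change below 0 was 39 to 43 in these fits. Calls over all 16006 genes, in either direction, moved too, from 2568 in the main fit. They were 895, 922 and 873 without Ctrl replicates 1, 2 and 3, and 2193, 768 and 3400 without MIR21-KO replicates 1, 2 and 3.

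The largest falls were those of the kinases AURKA and PLK1. AURKA (ENSG00000087586, chr20:56369389-56392337, minus strand, GRCh38), which acts at centrosomes and spindle poles, stood at 63.9, 62.7 and 60.2 FPKM in Ctrl replicates 1 to 3 and at 29.2, 28.1 and 26.0 FPKM in MIR21-KO replicates 1 to 3. Every MIR21-KO library was below every Ctrl library, with a log2 fold change of -1.16 ± 0.07 and an FDR of 0.000157. PLK1 (ENSG00000166851, chr16:23677656-23690367, plus strand), the kinase that drives entry into and passage through mitosis, had 46.1, 46.2 and 44.5 FPKM in Ctrl and 23.8, 22.1 and 20.1 FPKM in MIR21-KO cells. This was a log2 fold change of -1.05 ± 0.08 (FDR 0.000315), without overlap of the groups. Both kinases were separated by a wide gap between the groups, and their MIR21-KO means were 44.6% and 48.3% of the Ctrl means. SGO1, shugoshin, which protects cohesion at the centromere until anaphase, was a low transcript with 5.44, 5.78 and 6.47 FPKM in Ctrl and 3.183, 2.69 and 3.56 FPKM in MIR21-KO cells. The change was -0.89 ± 0.13 on the log2 scale at an FDR of 0.00367, with all MIR21-KO values below the Ctrl range. Genes on the opposite strand overlap 12.5% of the exonic bases of PLK1 and 17.7% of those of SGO1, and how strand was used in counting is not stated.

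All 4 genes of the chromosomal passenger complex had every MIR21-KO library below every Ctrl library, and 3 of them fell. Among all genes tested 25.2% showed this separation and 8.38% were called lower. INCENP (ENSG00000149503, chr11:62123973-62153163, plus strand), the scaffold of the complex, was measured at 25.9, 25.1 and 24.6 FPKM in Ctrl and at 11.1, 13.1 and 13.4 FPKM in MIR21-KO libraries. The groups did not overlap, and the log2 fold change was -1.004 ± 0.09 (SE, FDR 0.000531). BIRC5, also called survivin, was the highest of the 4, at 67.8, 71.9 and 72.8 FPKM and 52.0, 43.9 and 40.0 FPKM. Every MIR21-KO library was below every Ctrl library, with a log2 fold change of -0.65 ± 0.11 and an FDR of 0.00542. CDCA8, or borealin, which with BIRC5 brings the complex to the centromere, fell from 28.3 ± 1.07 to 18.9 ± 1.23 FPKM (mean ± SD, n = 3 in each group). This was a log2 fold change of -0.58 ± 0.08 (FDR 0.00215), without overlap of the groups. The kinase AURKB was not called, and its MIR21-KO libraries were spread from 42.7 to 29.7 FPKM. Its values were 48.7, 57.5 and 56.2 FPKM in Ctrl and 42.7, 38.3 and 29.7 FPKM in MIR21-KO cells. The change was -0.56 ± 0.15 on the log2 scale at an FDR of 0.0267, with all MIR21-KO values below the Ctrl range.

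Of the 7 spindle checkpoint genes 5 fell, beside 8.38% of all genes tested called lower. BUB1B (ENSG00000156970, chr15:40161023-40221136, plus strand), which encodes BubR1, a part of the inhibitor that binds CDC20, had 16.3, 14.5 and 15.0 FPKM in Ctrl and 7.17, 7.85 and 9.08 FPKM in MIR21-KO cells. The groups did not overlap, and the log2 fold change was -0.92 ± 0.11 (SE, FDR 0.00138). The read-through gene BUB1B-PAK6 shares 10.2% of its exonic bases. CDC20, the activator of the anaphase promoting complex and target of the checkpoint, was the highest gene of the group at 97.6, 103 and 105 FPKM in Ctrl and 60.7, 59.3 and 46.5 FPKM in MIR21-KO cells. Every MIR21-KO library was below every Ctrl library, with a log2 fold change of -0.88 ± 0.12 and an FDR of 0.00230. MIR21-KO replicate 3 was the lowest library for CDC20 and the highest MIR21-KO library for BUB1B. TTK, or MPS1, the kinase that starts checkpoint signalling, fell from 9.19 ± 0.139 to 4.89 ± 0.814 FPKM (log2 fold change -0.91 ± 0.12). MAD2L1, the protein that changes its fold to capture CDC20, fell from 15.6 ± 0.682 to 9.57 ± 0.458 FPKM (log2 fold change -0.70 ± 0.08), and the kinase BUB1 from 12.9 ± 0.818 to 8.45 ± 0.557 FPKM (log2 fold change -0.61 ± 0.09). BUB3, which docks BUB1 and BUB1B on the kinetochore, lay at the threshold with a log2 fold change of -0.35 ± 0.07 and an FDR of 0.0108. MAD1L1, the partner that holds MAD2L1 at the kinetochore, had values of 3.53, 3.96 and 3.95 FPKM in Ctrl and 4.84, 4.03 and 3.31 FPKM in MIR21-KO cells, and the groups overlapped (log2 fold change 0.07 ± 0.15, FDR 0.749).

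**Figure D2:**
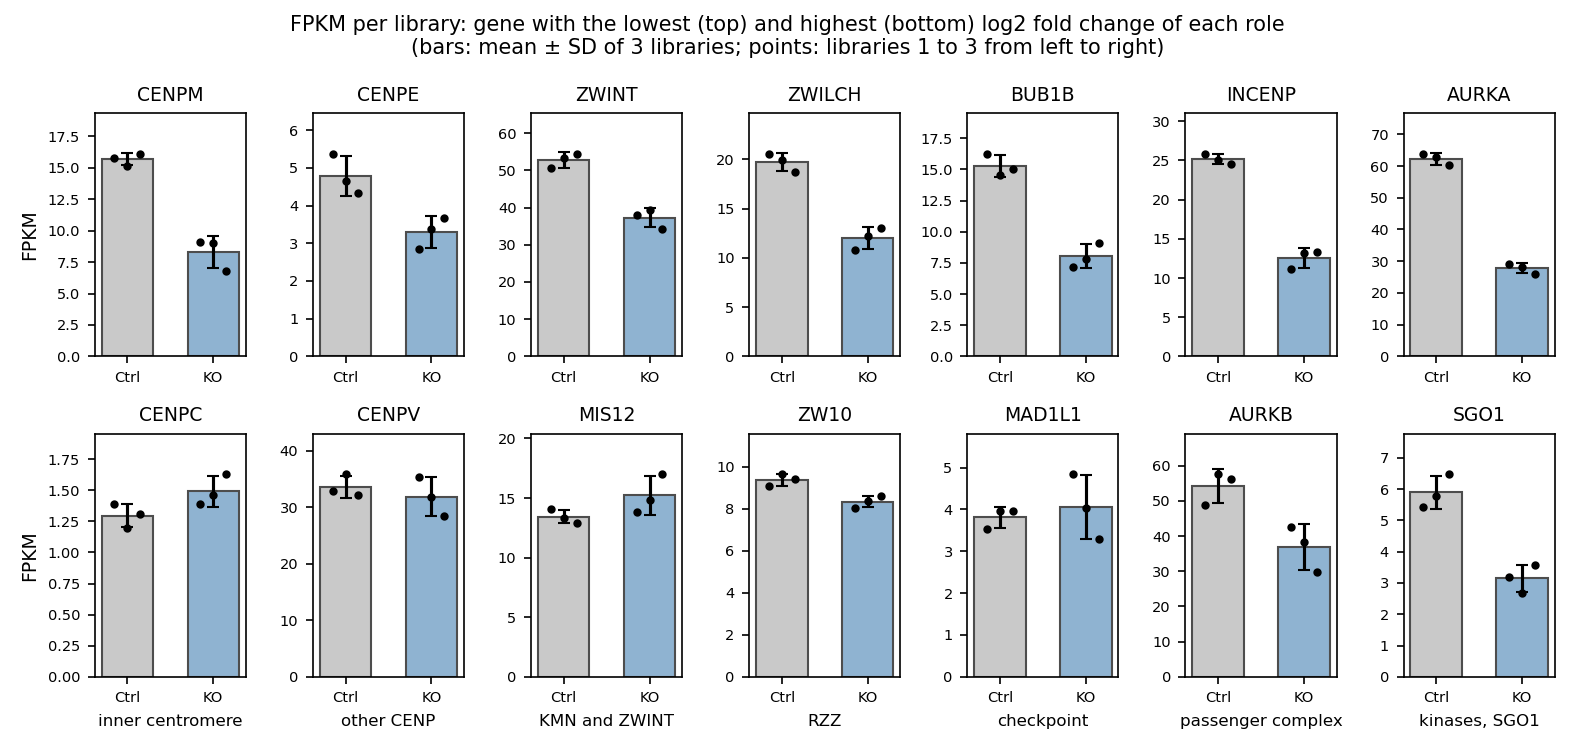
FPKM in the 6 libraries for the gene with the lowest log2 fold change (top) and with the highest (bottom) in each role, with bars for the mean, error bars for the SD (n = 3 in each group) and points for libraries. In the top row every MIR21-KO library lies below every Ctrl library, while MIS12, CENPV and MAD1L1 in the bottom row overlap between groups.

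The RZZ complex brings dynein and MAD1L1 to kinetochores, and 2 of its 3 genes fell, beside 8.38% of all genes tested. ZWILCH had 20.6, 19.9 and 18.7 FPKM in Ctrl and 10.8, 12.3 and 13.0 FPKM in MIR21-KO libraries. This was a log2 fold change of -0.71 ± 0.09 (FDR 0.00208), without overlap of the groups. Genes on the opposite strand, RPL4 among them, overlap 10.9% of the exonic bases of ZWILCH. KNTC1, the human Rod protein, fell from 5.81 ± 0.311 to 3.72 ± 0.461 FPKM (log2 fold change -0.63 ± 0.12, FDR 0.00755). ZW10, which also acts in membrane traffic outside mitosis, had 9.06, 9.63 and 9.41 FPKM and 8.05, 8.38 and 8.58 FPKM. The groups did not overlap, but the log2 fold change of -0.17 ± 0.07 was not called (FDR 0.131).

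In the KMN network with its partner ZWINT 2 of 8 genes fell, beside 8.38% of all genes tested, the median log2 fold change being -0.19. ZWINT, which binds KNL1 and the RZZ complex, was the highest of them, with 50.5, 53.4 and 54.5 FPKM in Ctrl and 38.1, 39.2 and 34.4 FPKM in MIR21-KO cells. The change was -0.50 ± 0.08 on the log2 scale at an FDR of 0.00430, with all MIR21-KO values below the Ctrl range. KNL1 itself and PMF1, a further gene of the MIS12 complex, lie outside the naming rule and are not among the 8. Neither was called (log2 fold change -0.43 ± 0.23, FDR 0.206, and -0.31 ± 0.20, FDR 0.295). The counted genes of the MIS12 complex, the base that joins the outer kinetochore to the centromere, were mixed. DSN1 fell from 19.0 ± 0.748 to 14.8 ± 0.158 FPKM (log2 fold change -0.35 ± 0.07, FDR 0.00846), NSL1 was not called at -0.13 ± 0.08, and MIS12 itself had the highest log2 fold change of the network. Its libraries stood at 14.1, 13.3 and 12.9 FPKM in Ctrl and 13.8, 14.9 and 17.0 FPKM in MIR21-KO cells. One MIR21-KO library lay within the Ctrl range, and the log2 fold change of 0.17 ± 0.10 was not called (FDR 0.207).

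None of the 4 genes of the NDC80 complex, the rod that binds microtubules, was called, beside 8.38% of all genes called lower. NUF2 had a log2 fold change of -0.49 ± 0.10 (FDR 0.0118), with 13.0, 15.4 and 13.0 FPKM in Ctrl and 10.7, 9.31 and 9.49 FPKM in MIR21-KO cells, which did not overlap. NDC80 itself (chr18:2571511-2616635, plus strand) had a log2 fold change of -0.26 ± 0.13, and its libraries overlapped at 5.70, 4.86 and 5.83 FPKM and 5.10, 4.72 and 3.90 FPKM. SPC24 and SPC25, the pair at the end of the rod that faces the chromosome, had positive values that were not called, 0.07 ± 0.16 and 0.16 ± 0.17. SPC25 was covered by 86 to 134 reads in a library, which limits its precision.

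The inner centromere held 17 genes, of which 7 fell (median log2 fold change -0.47), beside 8.38% of all genes tested. CENPM, a protein of the CENP-H, I, K and M group, had the largest fall, with 15.8, 15.2 and 16.1 FPKM in Ctrl and 9.08, 9.05 and 6.81 FPKM in MIR21-KO cells. The groups did not overlap, and the log2 fold change was -0.92 ± 0.12 (SE, FDR 0.00253). Its partners CENPI and CENPK also fell, by log2 fold changes of -0.87 ± 0.13 and -0.70 ± 0.11, while CENPH at -0.47 ± 0.11 was not called (FDR 0.0164). CENPN, which reads the CENP-A nucleosome, fell from 18.8 ± 0.975 to 11.4 ± 0.683 FPKM (log2 fold change -0.71 ± 0.08). CENPL, its partner, was at -0.54 ± 0.13 with an FDR of 0.0208. In the group of CENP-O, P, Q and U, CENPO (-0.51 ± 0.07), CENPQ (-0.61 ± 0.11) and CENPU (-0.47 ± 0.09) fell, and CENPP, at 1.74 ± 0.114 FPKM in Ctrl, was not called (-0.29 ± 0.15). Antisense genes overlap 31.4% of the exonic bases of CENPO, 22.8% of those of CENPN, 11.7% of those of CENPU and 42.7% of those of CENPP.

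CENPA, the histone variant itself, was not called. Its levels were 19.5, 22.4 and 20.7 FPKM in Ctrl and 15.1, 16.8 and 13.6 FPKM in MIR21-KO cells, with no overlap, and its log2 fold change was -0.46 ± 0.10 at an FDR of 0.0144. The 4 histone-fold proteins CENP-T, W, S and X, which bind DNA beside the CENP-A nucleosome, were not called either. CENPX had 84.8, 92.2 and 91.3 FPKM in Ctrl and 72.8, 57.8 and 47.4 FPKM in MIR21-KO libraries, and its log2 fold change of -0.61 ± 0.15 had an FDR of 0.0245. CENPW (-0.27 ± 0.18), CENPS (-0.22 ± 0.21) and CENPT (0.02 ± 0.16) overlapped between groups. CENPS shares 64.7% of its exonic bases with the read-through gene CENPS-CORT, and antisense genes overlap 19.6% of those of CENPT, and how reads were divided between such genes is not stated, so both values are uncertain.

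CENPB, which binds a motif in centromeric satellite DNA, and CENPC, which ties the CENP-A nucleosome to the MIS12 complex, had values above 0. CENPB stood at 73.2, 83.0 and 77.9 FPKM in Ctrl and 97.8, 86.5 and 67.1 FPKM in MIR21-KO cells, with MIR21-KO libraries on both sides of the Ctrl range (log2 fold change 0.09 ± 0.14, FDR 0.678). CENPC was the lowest of the 46 genes, with 1.39, 1.198 and 1.31 FPKM in Ctrl and 1.39, 1.46 and 1.63 FPKM in MIR21-KO cells. It was the gene with every MIR21-KO library above every Ctrl library, by a narrow margin, and its log2 fold change of 0.19 ± 0.15 was not called (FDR 0.382).

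Of the 4 CENP genes outside that network 0 were called, beside 8.38% of all genes called lower. CENPE, a kinesin that moves chromosomes to the spindle equator, stood at 5.37, 4.65 and 4.34 FPKM in Ctrl and 2.85, 3.38 and 3.68 FPKM in MIR21-KO cells, with a log2 fold change of -0.52 ± 0.14 and an FDR of 0.0270. CENPF, a large protein of the outer kinetochore, was close to it at -0.45 ± 0.12 (FDR 0.0322), and CENPJ, a protein of centrioles and not of centromeres, was at -0.25 ± 0.12 (FDR 0.154). CENPV had 32.8, 35.9 and 32.2 FPKM in Ctrl and 35.5, 31.8 and 28.5 FPKM in MIR21-KO cells, which overlapped (-0.08 ± 0.10).

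**Figure D3:**
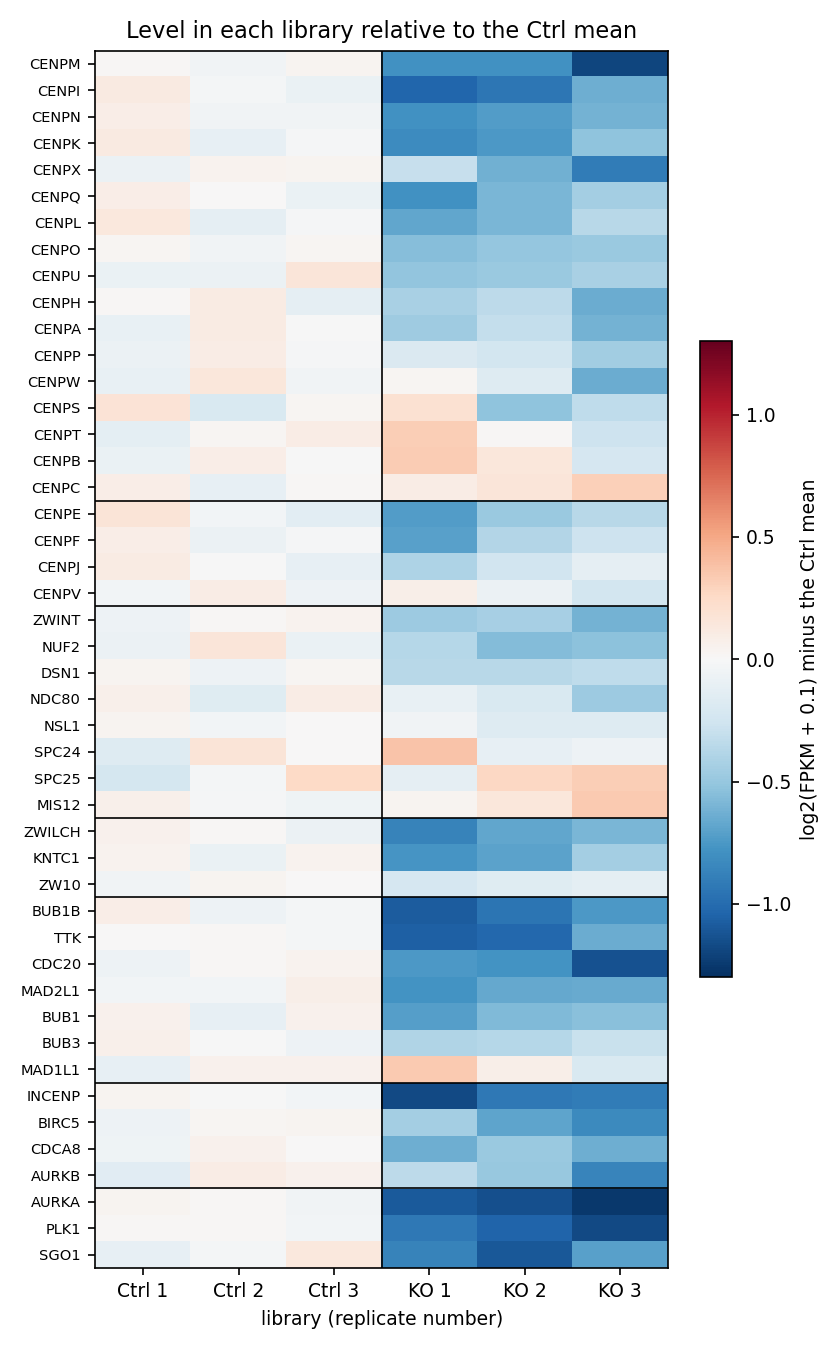
Each gene (rows, by role) in each library (columns), coloured by log2(FPKM + 0.1) minus the mean of the Ctrl libraries, blue for lower and red for higher. The Ctrl columns are pale throughout, and among MIR21-KO columns some genes are darkest in replicate 1 (BUB1B, TTK, CENPI) and others in replicate 3 (CENPM, CDC20, CENPX).

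The MIR21-KO libraries differed among themselves in a way that followed the make-up of the transcripts. Over the 46 genes the difference between MIR21-KO replicates 3 and 1 ran from -0.67 (CENPW) to 0.44 (SPC25) on the log2 scale. Across these genes, which share the same pair of libraries and are not independent, its Pearson correlation was -0.66 with the GC content of the longest transcript and 0.46 with log2 gene length, beside -0.28 and 0.11 over 15955 tested genes. After the trend of each library on GC content and length was removed, 25 of the 46 genes were called lower and 0 higher. AURKB (log2 fold change -0.65) and CENPX (-0.77) were among the genes that passed, and CENPU was no longer called (FDR 0.0262). Over all genes 3954 of 15955 were then called in either direction, beside 2568 of 16006 in the main fit.

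Among the 37 genes with a promoter in the RefSeq table, the CHR was found in 16 (43.2%) within 250 bases before to 50 bases after an annotated start, on either strand. It was present in 18.2% of all 27305 genes with a promoter there and in 13.3% of the 9355 of them that were tested. Within 50 bases on either side of the start the CHR was found in 13 of 37 genes (35.1%), against 5.77% of all genes and 4.24% of those tested. The CCAAT box was present in 24 of 37 (64.9%) against 39.7% of all genes and 43.1% of those tested, and both words together in 12 of 37 (32.4%) against 7.26% and 5.49%. Words of the E2F type (the word TTCCCGC, its relative TTCGCGC, and the similar words TTGCCGC as well as TTGGCGC) were found in 12 of 37 (32.4%) against 15.3% of all genes, and in 25.8% of those tested. All words were sought on both strands. A CHR variant (TTTAAA) was found in 4 of 37 (10.8%) against 14.5% of all genes and 10.4% of those tested. The CHR was found in 9 of the 17 called genes with a promoter and in 7 of the 20 that were not called. These 7, with their log2 fold changes, were NUF2 (-0.49), CENPA (-0.46), CENPF (-0.45), NDC80 (-0.26), ZW10 (-0.17), SPC25 (0.16) and CENPC (0.19). A CHR and a CCAAT box overlapped in 1 gene (CDCA8), and a CCAAT box and an E2F word in 1 (ZW10). AURKA, BIRC5, BUB3, CENPH, CENPJ, CENPL, CENPM, KNTC1 and TTK were not among the 37.

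**Figure D4:**
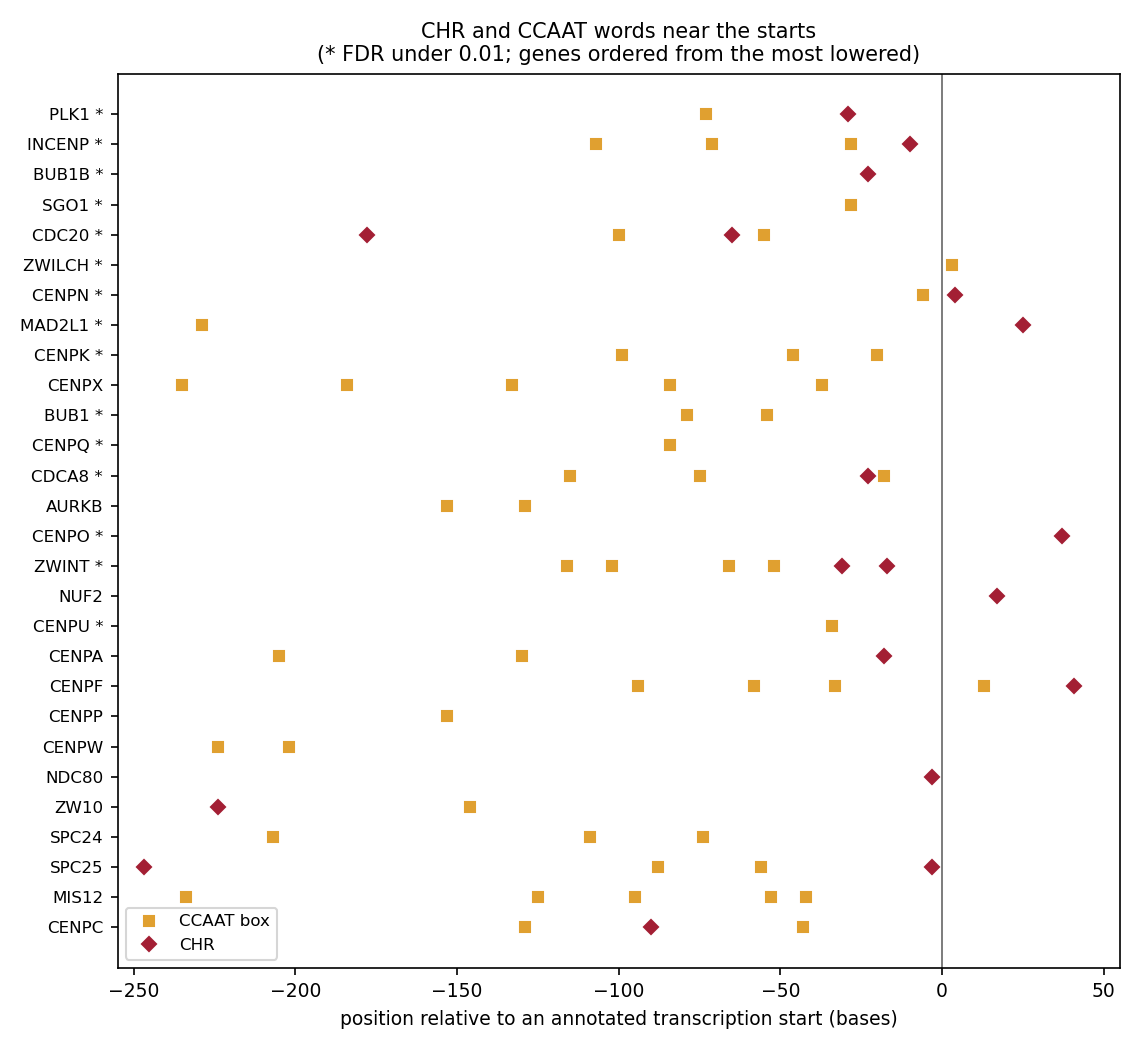
Position of each CHR (diamonds) and CCAAT box (squares) in bases from an annotated start at 0, for the genes with at least 1 of the words, ordered from the lowest log2 fold change at the top and with stars for an FDR under 0.01. The CHR lies within 50 bases of a start in 13 genes, from PLK1 near the top to SPC25 near the bottom.

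Sites for the deleted miRNA were sought in the longest 3′ UTR of each gene (GENCODE 29, GRCh38). The mature miRNAs are printed with the seed, bases 2 to 8, in capitals, and let-7a is shown for comparison.
hsa-miR-21-5p: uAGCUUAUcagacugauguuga
hsa-let-7a-5p: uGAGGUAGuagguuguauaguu
The heptamer complementary to the miR-21-5p seed was found in 3 of the 46 genes, against 9.88% of 11646 tested genes with a 3′ UTR, and a full 8mer (with an A after the heptamer) in 0, against 2.87%. For let-7a the heptamer was likewise found in 3 genes and the 8mer in 0, against 11.1% and 4.35%. The heptamers stand in capitals in these windows, 3 for miR-21-5p and 3 for let-7a, each the only one in its 3′ UTR for that miRNA.
CENPP (miR-21-5p, chr9:92613365-92613394, plus strand): gtttataaaaATAAGCTtaacatctgagaa
CENPQ (miR-21-5p, chr6:49492968-49492997, plus strand): tattatgataATAAGCTtatatatgtgaat
SGO1 (miR-21-5p, chr3:20170037-20170066, minus strand): tcttttaattATAAGCTtctggcatctcta
AURKB (let-7a-5p, chr17:8204759-8204788, minus strand): tatctgttttCTACCTCctcctttgtttaa
CDCA8 (let-7a-5p, chr1:37709129-37709158, plus strand): tcttgctcttCTACCTCcctagttagtgga
CENPP (let-7a-5p, chr9:92614328-92614357, plus strand): tcaacggccaCTACCTCcacgcttcccaga
CENPQ and SGO1, which hold a miR-21-5p heptamer, fell as described above, and CENPP was not called. A site for the shorter 6mer was found in 11 genes for miR-21-5p and in 8 for let-7a, against 27.9% and 27.5% of tested genes. A match of letters is not a site shown to be used.

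The other genes of chromosome segregation were described by lists, 75 genes in all, of which 20 fell, 0 rose and 55 were not called (median log2 fold change -0.37). Among all genes tested 8.38% were called lower, and the counts of each list below stand beside that share. The 20 calls became 6 without Ctrl replicate 1 or 2 or MIR21-KO replicate 2, 5 without Ctrl replicate 3, and 31 without MIR21-KO replicate 3. Calls over all genes, in either direction, went from 2568 to 895, 922, 768, 873 and 3400 in these fits, in the same order. At an unadjusted p under 0.05 WEE1, which restrains CDK1, was the 1 gene of the lists with a positive value that passed, by limma and by voom (log2 fold change 0.38 ± 0.12, FDR 0.0504). With GC and length trends removed RBL2, STAG2 and WEE1 passed, and WEE1 was called higher (log2 fold change 0.54, FDR 0.00573). In the list of CENP-A loading and kinetochore genes outside the naming rule 3 of 13 fell, led by TRIP13, the ATPase that takes the checkpoint inhibitor apart, with 22.3, 25.9 and 25.4 FPKM in Ctrl and 11.9, 12.05 and 12.02 FPKM in MIR21-KO cells (log2 fold change -1.02 ± 0.08, FDR 0.000320). The others were OIP5, a part of the CENP-A loading complex (log2 fold change -0.998 ± 0.08, FDR 0.000429), and SPDL1 (log2 fold change -0.60 ± 0.10, FDR 0.00568), whereas the CENP-A chaperone HJURP was not called (log2 fold change -0.37 ± 0.08, FDR 0.0124). Of the SKA complex, which couples kinetochores to microtubule ends, 1 of 3 genes fell, SKA3 (log2 fold change -0.93 ± 0.11, FDR 0.00138).

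Mitotic cyclins and CDK1 regulators had 5 of 8 genes lower, with CCNB1, cyclin B1, at 121, 125 and 119 FPKM in Ctrl and 59.4, 55.5 and 52.4 FPKM in MIR21-KO cells (log2 fold change -1.13 ± 0.08, FDR 0.000203). Condensin had 4 of 8 lower, led by NCAPH (log2 fold change -0.93 ± 0.08, FDR 0.000382), and cohesin and separase 4 of 12, led by CDCA5, or sororin (log2 fold change -0.77 ± 0.09, FDR 0.00172). In the list of DREAM and FOXM1 regulators, several of which are parts of complexes that read the CHR, 3 of 10 fell. They were LIN9 (log2 fold change -1.07 ± 0.16, FDR 0.00355), MYBL2 (log2 fold change -0.85 ± 0.10, FDR 0.00162) and FOXM1 (log2 fold change -0.76 ± 0.09, FDR 0.00175). With the replicate block, and without any 1 Ctrl library or MIR21-KO replicate 2, CCNB1 and NCAPH were the only calls in their lists. In these fits CDCA5 stayed called only without Ctrl replicate 1, and other cohesin and separase genes in none. FOXM1 was called without Ctrl replicate 2 or MIR21-KO replicate 2, and LIN9 and MYBL2 in none of them. Calls over all genes were 651 to 922. Of the 18 anaphase promoting complex genes 0 were called by limma, beside 8.38% of all genes called lower. Their median log2 fold change was -0.18. At an FDR under 0.05, 6 of them were lower, against 16.8% of all genes tested. With voom 4 of these 18 were called lower, with GC and length trends removed 6, and without MIR21-KO replicate 3 there were 3 such calls. Over all genes these fits gave 3496, 3954 and 3400 calls in either direction, beside 2568 in the main fit. With the replicate block, alone or with these trends removed, 0 of the 18 were called, beside 651 and 1771 calls over all genes. Without any other single library 0 of the 18 were called, beside 768 to 2193 calls over all genes. Whether this list differed from the 46 genes was not tested. The proliferation markers MKI67, TOP2A and PCNA had every MIR21-KO library below every Ctrl library, a pattern shown by 25.2% of all genes tested. Their summed levels were 524, 524 and 507 FPKM in Ctrl and 397, 399 and 395 FPKM in MIR21-KO cells. At the threshold 0 of 3 were called, with values for MKI67 (log2 fold change -0.72 ± 0.15, FDR 0.0110), for TOP2A (log2 fold change -0.55 ± 0.15, FDR 0.0296) and for PCNA (log2 fold change -0.29 ± 0.10, FDR 0.0734). MKI67 and TOP2A were called lower with voom, with GC and length trends removed and without MIR21-KO replicate 3. With these trends removed and the replicate block only MKI67 was called. With the replicate block alone, without trend or robust fitting and without any other single library, 0 of the 3 were called. The part of these markers in the changes of the 46 genes was not tested.

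**Figure D5:**
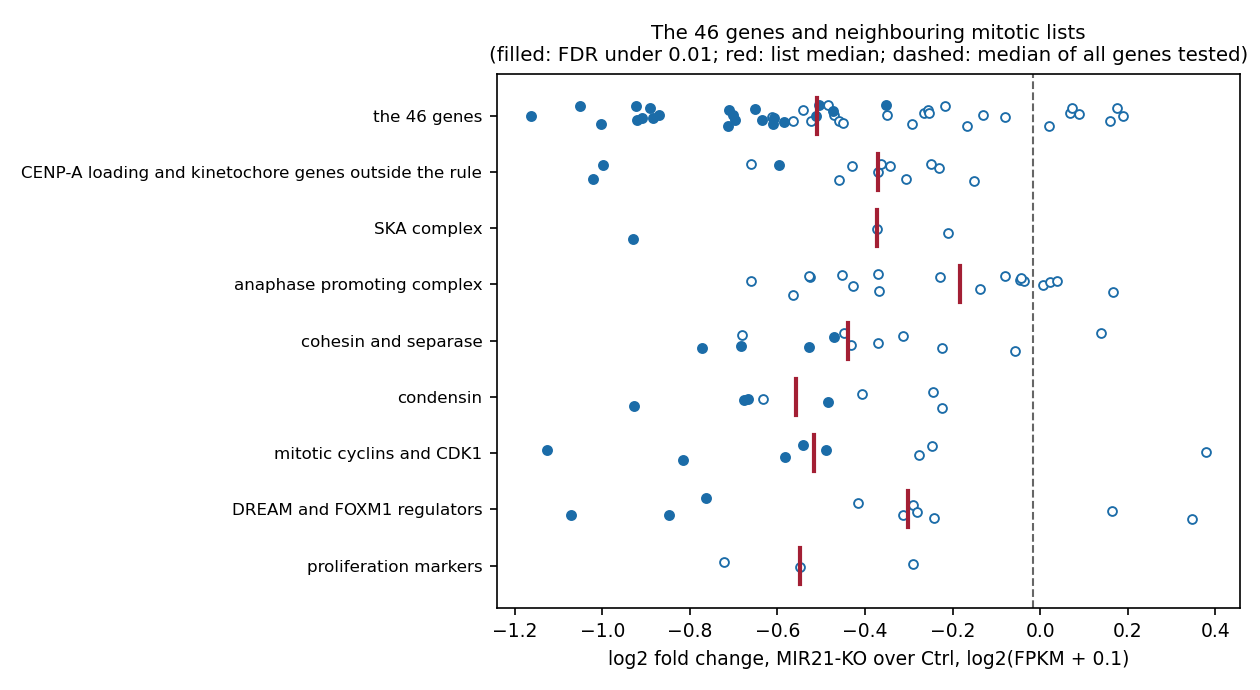
Log2 fold change of every gene in the 46-gene group and in 8 further lists (rows), with filled points for an FDR under 0.01, a red bar for the median of each list and a dashed line for the median of all genes tested (-0.02). The median of the 46 genes is -0.51, and that of the anaphase promoting complex is -0.18.

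The libraries held 10631667 to 14345209 reads. On the log2 scale, Ctrl libraries correlated with each other at 0.950 to 0.959 (Pearson), MIR21-KO libraries at 0.933 to 0.957, and libraries of different groups at 0.896 to 0.912. MIR21 (chr17:59841266-59841337, GRCh38) was listed at 0 in all 6 libraries. PolyA libraries do not capture mature miRNAs, and all 37 mitochondrial genes were listed at 0 too, so this value does not check the deletion. VMP1, whose gene contains it on the same strand, rose from 70.7, 76.8 and 77.8 FPKM in Ctrl to 135, 144 and 149 FPKM in MIR21-KO cells (log2 fold change 0.92 ± 0.08, FDR 0.000473). Of 9 genes known from A549 or lung epithelium 1 was called lower, CDH1 (log2 fold change -1.48 ± 0.10, FDR 0.000175), and 0 higher, and their summed level was 4249.9 to 4759 FPKM over the 6 libraries. EPCAM, a defining epithelial marker, was low in both groups (1.19 ± 0.523 FPKM in Ctrl and 0.695 ± 0.288 FPKM in MIR21-KO cells). Of 8 markers of leukocytes, endothelium and fibroblasts only LUM and COL1A1 passed the filter, and 0 was called, the sum over all 8 being 5.05 to 7.10 FPKM. CD3E was at 0 in every library, and PTPRC, PECAM1, CDH5 and DCN were near 0.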

How the data were processed

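PolyA RNA-seq libraries of A549 cells, 3 Ctrl and 3 MIR21-KO, were grouped and numbered by the sample titles. Nothing states that the 3 samples of a group were separate cultures, so p-values measure the spread between these samples only. The members and lists were chosen with earlier results of these data known.

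The authors deposited FPKM values per gene and library, made from strand-specific libraries. The submitters' processing notes name cutadapt 1.14, HISAT2 2.1.0, SAMtools 1.5, featureCounts 1.5.3, edgeR 3.18.1 and the build hg38. The strand setting of the counting is not given in the sources used here. The deposited table also holds the authors' own log2 fold changes, p-values and FDRs, which were not used. FPKM times gene length came out as whole reads for 100% of values (tolerance 0.01), and these FPKM imply library sizes of 0.9497 to 1.0304 times the read totals. One read on 1 kb was worth 0.0731 to 0.0930 FPKM, and 3 reads, the limit a count of 0 allows, 0.219 to 0.279 FPKM (counting error only). All listed lengths of the 46 genes equalled their GENCODE 29 exonic lengths.

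Genes averaging 0.5 FPKM or more over the libraries entered limma 3.58.1 (R 4.3.3) as log2(FPKM + 0.1), eBayes with trend and robust fitting, two-sided, without covariates and with Benjamini-Hochberg adjustment over all 16006 genes. Calls were made at an FDR under 0.01, the threshold of the study. Per-library values are given for the lowest and highest log2 fold change and the highest level in each role, and for other genes in addition, chosen after their values were seen. The lists are those named in the text. The procedure was also run on simulated negative binomial libraries with a single dispersion and no GC or length trend. They differ in this from the real libraries, and no outcome is drawn on here. Alternatives were other pseudocounts, filters, scalings and thresholds, limma without trend or robust fitting, testing of protein-coding genes alone, voom on recovered reads, removal of GC and length trends, a replicate block, and leaving out each library. Promoters and miRNAs were taken from RefSeq and 3′ UTRs from GENCODE 29, with annotation matched by gene identifier for 57836 of 58174 genes (99.4%). Figures were drawn with matplotlib 3.10.9.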

Additional observations from a re-analysis of the deposited data

How the results depend on the processing

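Main counts were 22 of the 46 genes and 20 of the 75 list genes lower, 0 higher in both, and 2568 of all genes called. At an FDR under 0.05 there were 31 genes of the 46 and 41 list genes lower and 5114 calls in all. Without trend or robust fitting there were 16 and 13 lower and 1946 calls, and without a filter 17 and 14 lower and 1810 calls. Removal of GC and length trends gave 25 and 38 lower, 1 list gene (WEE1) higher and 3954 calls, and together with the replicate block 16 and 16 lower and 1771 calls. With voom there were 27 and 30 lower and 3496 calls, and among protein-coding genes only 27 and 27 lower and 3253 calls. Leaving out 1 library gave 5 (without MIR21-KO replicate 2) to 23 (without MIR21-KO replicate 3) of the 46 genes, 5 to 31 list genes and 768 to 3400 calls, and 0 higher in both. The cause of these differences was not tested.

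Departures of same-numbered libraries from their group means correlated at -0.17, -0.02 and -0.02, beside -0.13 to 0.16 for libraries of different number. With 3 libraries in a group, such values cannot show whether same-numbered libraries shared a batch. The sample titles give only a replicate number. With the replicate block 3 of the 46 genes (AURKA, INCENP and PLK1), 5 list genes and 651 genes in all were called.

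Among values of the 46 genes under the alternatives, 15 reversed, none of them called, 697 kept direction and call, 37 gained a call and 114 lost it. With GC and length trends removed, with or without the block, the log2 fold change was -0.055 for CENPB, -0.084 for CENPT, 0.038 for NSL1 and -0.045 for MAD1L1. Scaling to total reads gave -0.016 for CENPT. Leaving out 1 library gave -0.032 (without MIR21-KO replicate 1) to 0.24 (without MIR21-KO replicate 3) for CENPB, -0.13 to 0.17 for CENPT and -0.060 to 0.21 for MAD1L1 (the same libraries), and -0.085 (without MIR21-KO replicate 1) to 0.15 (without MIR21-KO replicate 2) for SPC24. The median over all genes was -0.017 as deposited, -0.023 with median-ratio scaling and -0.052 with scaling to total reads. Depth limited SPC25 (86 to 134 reads) and CENPS (46 to 86 reads) most.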

Other observations

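Chosen after its values were seen, the summed FPKM of the microtubule-binding end of the NDC80 complex (NDC80 and NUF2) was set against that of its inner end (SPC24 and SPC25). The ratio was 1.74, 1.53 and 1.42 in the Ctrl libraries and 1.10, 1.10 and 1.02 in the MIR21-KO libraries, without overlap between the groups. No test is given, since the genes were chosen for this pattern.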
